A study of Mus musculus with 14 samples.

Results

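Integrins and laminins are the genes described here. Members were chosen by symbol alone, as every transcript in the deposited mouse table named as an integrin alpha subunit (Itga), an integrin beta subunit (Itgb) or a laminin chain (Lama, Lamb, Lamc). This gave 37 of 24016 transcripts, made up of 18 integrin alpha subunits, 8 integrin beta subunits, 5 laminin alpha chains, 3 laminin beta chains and 3 laminin gamma chains. Expression was measured by RNA sequencing in C2C12 cells, a mouse myoblast line that exits the cell cycle and fuses into myotubes when serum is lowered. Cells were transfected with a control siRNA (siCtrl) or with a pool of siRNAs against the transcription factor Klf5 (siKlf5), and the growth medium with fetal bovine serum was then replaced by differentiation medium with 2% horse serum. RNA was taken on days 0 to 3 after the switch, and each of the 8 combinations of siRNA and day is a single library. All groups are a single cell line, and the knockdown was transient and partial. The siCtrl libraries of days 0 to 3 held 12178833, 7850497, 20301506 and 12366627 reads on transcripts, and the siKlf5 libraries held 11136799, 8119452, 11808641 and 10864084.

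Integrins are receptors made of 1 alpha and 1 beta subunit that span the plasma membrane and tie the extracellular matrix to the actin cytoskeleton. Laminins are trimers of an alpha, a beta and a gamma chain, and they form the sheet-like core of basement membranes, such as the one that wraps each muscle fibre. In skeletal muscle, laminin outside the fibre is held by the integrin of alpha7 and beta1 subunits and by the dystroglycan complex, and loss of either the laminin alpha2 chain or the alpha7 subunit is known to cause muscle disease.

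Klf5 itself, the target that the labels name, was lower in the siKlf5 library on every day. Its FPKM value, that is, reads per kilobase of exon after scaling of each library, was 223.8, 381.1, 614.4 and 933.1 in siCtrl cells on days 0, 1, 2 and 3 and 35.1, 159.6, 192.1 and 211.4 in siKlf5 cells. Klf5 thus rose during differentiation with both siRNAs, and knockdown cells on day 3 still held 211.4, close to the control value of day 0. The cells carried the markers of their label. The myogenic factor Myod1 lay between 398.0 and 556.8 in all 8 libraries, and the summed level of 14 skeletal muscle markers went from 4665 on day 0 to 23763 on day 3 in siCtrl cells and from 4022 to 22665 in siKlf5 cells. Of 10 leukocyte markers, Cd3e was listed at 0 in every library and Ptprc did not exceed 0.707, and the epithelial genes Epcam and Krt18 were also at 0. Others on these lists had higher levels. The macrophage genes Lyz2 and Cd68 lay between 16.3 and 65.0 and between 1.91 and 23.5, and the epithelial genes Krt14 and Cdh1 between 5.20 and 29.6 and between 1.65 and 38.1.

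Of the 37 members, 29 averaged an FPKM value of 1 or more across the libraries and entered the tests, and 20 averaged 10 or more. All 37 symbols are protein coding genes in the GENCODE annotation of the same genome build. The other 8, Itga1, Itga2, Itga8, Itga9, Itgad, Itgae, Itgax and Lama1, had means below 1 and reached at most 3.12 in any library, a value resting on 33 reads. They include the collagen-binding subunits alpha1 and alpha2, 3 alpha subunits known from leukocytes, and the laminin alpha1 chain of early embryonic basement membranes. Itga9, named here after its values were seen, was listed at 0 on day 0 and at 3.12 on day 3 in siCtrl cells and at 0 on both days in siKlf5 cells. These 8 were not tested.

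Promoter sequence was available for 23 of the 37 members, in 26 windows, and it is shown for the 4 genes with known promoter windows whose levels moved the most among members with a mean of at least 10: Itgb6, Itga10 and Itga4, which rose during differentiation, and Itgb7, which fell. The windows hold the 250 bases before the RefSeq transcript start, read 5′ to 3′ on the strand of the gene, and were placed on mm9 by an exact match. Capitals mark 2 motifs searched on both strands: CANNTG, the E-box letters read by myogenic basic helix-loop-helix factors, and CACCC, which reads GGGTG on the other strand and is the core read by Klf factors.
Itgb6, chr2:60560661-60560910, minus strand: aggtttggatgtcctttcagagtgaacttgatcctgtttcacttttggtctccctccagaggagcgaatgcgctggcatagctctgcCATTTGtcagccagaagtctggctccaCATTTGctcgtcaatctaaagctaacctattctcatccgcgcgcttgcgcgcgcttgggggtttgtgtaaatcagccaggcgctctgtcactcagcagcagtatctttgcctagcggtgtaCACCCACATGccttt
Itga10, chr3:96449257-96449506, plus strand: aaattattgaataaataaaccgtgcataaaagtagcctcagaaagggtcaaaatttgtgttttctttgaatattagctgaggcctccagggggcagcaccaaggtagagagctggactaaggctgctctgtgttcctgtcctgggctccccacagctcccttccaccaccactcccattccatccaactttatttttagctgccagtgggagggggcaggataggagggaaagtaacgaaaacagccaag
Itga4, chr2:79095333-79095582, plus strand: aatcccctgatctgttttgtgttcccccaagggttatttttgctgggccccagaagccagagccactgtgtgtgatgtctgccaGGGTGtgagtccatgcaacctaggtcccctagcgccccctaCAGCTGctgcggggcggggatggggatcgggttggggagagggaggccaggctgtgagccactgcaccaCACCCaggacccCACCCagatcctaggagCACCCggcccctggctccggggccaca
Itgb7, chr15:102062367-102062616, minus strand: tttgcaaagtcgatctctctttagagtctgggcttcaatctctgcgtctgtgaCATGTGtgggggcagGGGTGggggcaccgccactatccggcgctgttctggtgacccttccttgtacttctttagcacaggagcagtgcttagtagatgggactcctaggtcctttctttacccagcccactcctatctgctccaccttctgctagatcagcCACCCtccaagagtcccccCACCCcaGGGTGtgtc
The Itgb6 window holds 3 CANNTG matches and 1 CACCC match, and the CACCC letters overlap the last CANNTG match. In the Itga4 window there is 1 CANNTG match, which is of the form CAGCTG, and 4 CACCC matches on the 2 strands together. Itgb7 has 1 CANNTG match and 4 CACCC matches, so both motifs lie beside a gene that fell as well as beside genes that rose. Itga10 has neither motif in these bases. Over all 26 member windows, CANNTG was found in 80.8%, against 66.2% of 32851 promoter windows of the same length, its form CAGCTG in 23.1% against 13.0%, CACCC in 61.5% against 52.0%, and the GC-box letters GGGCGG in 34.6% against 32.7%. A match of letters is a description and does not show binding.

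The first question was which integrins and laminins these cells make. Since FPKM values are divided by exon length, members can be set side by side. Itga7 and Itgb1, which together form the main laminin receptor of muscle cells, were the most abundant members by far, with means of 2263 and 1425. The other members with a mean of at least 100 were Itga5 (360.2), Itgb5 (349.6), Lamb1 (318.4), Lama5 (244.5), Lamb2 (225.8), Itgav (197.5), Lamc1 (187.7), Itga3 (185.7), Itga6 (156.3) and Itgb3 (115.2). Neighbours in this order, such as Itga5 and Itgb5 or Lamc1 and Itga3, overlap in their ranges over the 8 libraries.

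**Figure D1:**
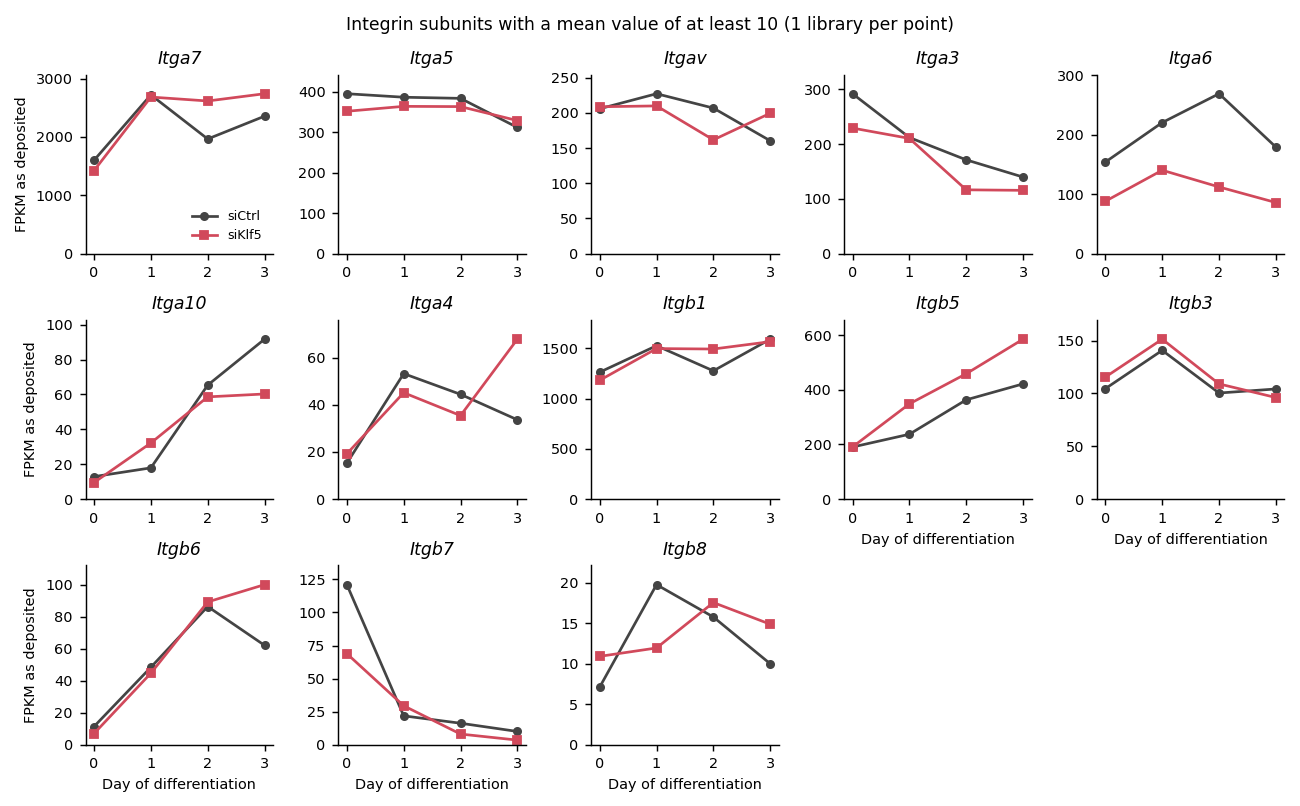
FPKM value (vertical axis, linear, from 0) of the 13 integrin subunits with a mean of at least 10 on days 0 to 3 (horizontal axis) in siCtrl (grey circles) and siKlf5 cells (red squares), 1 library per point. Itgb5 and Itga10 climb with both siRNAs, Itgb6 is above its day 0 level on every later day and in siCtrl cells falls from 86.3 on day 2 to 62.1 on day 3, Itga3 and Itgb7 decline with both, and the siKlf5 points of Itga6 lie below the siCtrl points on all 4 days.

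Differentiation was compared with a linear model over all 8 libraries, with siRNA and day as terms. Each condition has 1 library, so the error of this model is what siRNA and day, taken as additive, leave unexplained (3 residual degrees of freedom), and it mixes library noise with any true interaction. Between day 0 and day 3, the collagen-binding subunits alpha10 and alpha11, several beta subunits, alpha4, alpha7 and the laminin alpha2 chain rose, while alpha3, beta7 and the laminin chains alpha5 and gamma1 fell. Of the 29 members tested, 8 rose and 4 fell at an adjusted p under 0.05 (limma, Benjamini-Hochberg over 14312 transcripts), 17 did not pass, and over all transcripts tested 12.8% rose and 17.6% fell. The median log2 difference was 0.31 over the 29 members and -0.09 over all transcripts. After median-ratio centring, which moved the median of all transcripts by 0.10, the member median was 0.42, and the share of calls that were higher went from 42.1% to 54.4% over all transcripts. In the same model, 5 members were higher and 1 was lower on day 1 than on day 0 (6.82% and 9.93% of all transcripts), and 8 were higher and 2 were lower on day 2 (11.5% and 11.6%). In bulk RNA, a change in the share of cells that express a gene and a change in RNA per cell cannot be told apart, and the unfused and fused cells of each culture were sequenced together.

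Among the laminin-binding alpha subunits, Itga7 rose and Itga3 fell. Itga7 (NM_008398, chromosome 10 of mm9, 128370869 to 128395340, plus strand) had FPKM values of 1600.1, 2721, 1965 and 2356 in siCtrl cells on days 0, 1, 2 and 3, and 1423, 2684, 2616 and 2741 in siKlf5 cells. Both day 0 libraries thus lay below all 6 later ones, and most of the increase had occurred by day 1. The increase from day 0 to day 3 was 1.68-fold (log2 0.75, SE 0.16, adjusted p = 0.0088), and it did not pass in limma without trend. Itga3 (NM_013565, chromosome 11, 94905796 to 94938028, minus strand), a receptor subunit for laminins with the alpha3 or alpha5 chain, was at 291.8, 211.9, 171.1 and 139.7 in siCtrl cells and 229.1, 210.3, 116.4 and 115.5 in siKlf5 cells. It fell with both siRNAs and was 2.03-fold lower on day 3 (log2 -1.02, SE 0.15, adjusted p = 0.0017). Itga6 (NM_008397, chromosome 2, 71624996 to 71696484, plus strand), which pairs with beta1 or beta4, was at 154.2, 220.7, 269.3 and 179.4 in siCtrl cells and 88.2, 140.4, 112.2 and 86.0 in siKlf5 cells. It was transiently higher, by 0.59 on the log2 scale on day 1 (SE 0.17, adjusted p = 0.046) and by 0.58 on day 2 (adjusted p = 0.041), and on day 3 the difference from day 0 was 0.09 (adjusted p = 0.72).

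The 2 collagen-binding subunits that were tested, Itga10 and Itga11, both rose. Itga10 (NM_001081053, chromosome 3, 96449507 to 96468442, plus strand) was at 12.9, 17.9, 65.3 and 91.7 in siCtrl cells and 9.48, 32.2, 58.6 and 60.3 in siKlf5 cells. The values of days 2 and 3 exceeded those of days 0 and 1 with either siRNA, and the day 3 level was 6.67-fold that of day 0 (log2 2.74, SE 0.38, adjusted p = 0.0014). Itga11, which is known from fibroblasts as a receptor for fibrillar collagen, started near 0, at 0.207, 1.27, 3.16 and 6.27 in siCtrl cells and 0, 1.83, 12.1 and 14.5 in siKlf5 cells. These rest on 2, 8, 52 and 63 reads and on 0, 12, 115 and 127 reads. Its log2 difference on day 3 passed the test (adjusted p = 0.0086), but the fitted size depends on the pseudocount and ranged from 3.27 to 7.68 over the alternatives, so only the direction is reported. Of 5 smooth muscle and fibroblast markers tested, 4 were also higher on day 3 and none was lower, against 12.8% and 17.6% of all transcripts. Tcf21 was listed at 0 in every library, Thy1 reached at most 0.893, the summed level of the 9 markers listed went from 631.3 on day 0 to 1708 on day 3 in siCtrl cells and from 544.7 to 1814 in siKlf5 cells, and the most abundant, Acta2, is also made by differentiating myoblasts. Their part in the rise of Itga11 was not tested.

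Among the subunits that bind fibronectin, vitronectin and related ligands, Itga4 rose, and the abundant subunits Itga5 and Itgav did not pass the test. Itga4 (NM_010576, chromosome 2, 79095583 to 79173271, plus strand), which binds Vcam1 and fibronectin, was at 15.2, 53.2, 44.4 and 33.6 in siCtrl cells and 19.2, 45.1, 35.4 and 67.8 in siKlf5 cells. All 6 later libraries lay above both day 0 libraries, and the increase on day 3 was 2.78-fold (log2 1.48, SE 0.36, adjusted p = 0.018). It did not pass without the day 2 libraries or in limma without trend. Itga5, the classical fibronectin receptor subunit, was at 394.6, 386.0, 383.2 and 311.4 in siCtrl cells and 351.3, 363.5, 362.8 and 328.4 in siKlf5 cells, and had the narrowest range of all members with a mean of at least 10, with the highest library 1.27 times the lowest. Itgav, which pairs with 5 of the beta subunits, was at 205.8, 227.2, 206.8 and 160.4 in siCtrl cells and 208.7, 209.9, 161.7 and 199.5 in siKlf5 cells. Their log2 differences on day 3 were -0.22 (adjusted p = 0.15) and -0.21 (adjusted p = 0.36). The platelet subunit Itga2b ranged from 1.64 to 13.2 and the leukocyte subunits Itgam and Itgal from 0.241 to 5.25 and 0.216 to 2.17. None of these 3 passed the test, although Itgam did on day 3 in limma voom (log2 3.49) and in limma without trend (3.30), and none rests on more than 92 reads in a library.

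Among members with a mean of at least 10, the largest rise and the largest fall were both those of beta subunits. Itgb1 (NM_010578, chromosome 8, 131209554 to 131257479, plus strand), the shared partner of most alpha subunits, was at 1264, 1527, 1277 and 1592 in siCtrl cells and 1183, 1499, 1494 and 1567 in siKlf5 cells. It was higher on day 3 by 1.29-fold (log2 0.37, SE 0.12), and at an adjusted p of 0.047 this call was lost in 4 of 10 alternatives, leaving out day 1 among them. Itgb5 (NM_001145884, chromosome 16, 33829751 to 33949424, plus strand), which pairs with alpha v to bind vitronectin, was at 190.5, 237.4, 363.4 and 421.8 in siCtrl cells and 191.0, 348.6, 458.9 and 585.5 in siKlf5 cells. With each siRNA every day was higher than the day before, and day 3 was 2.60-fold above day 0 (log2 1.38, SE 0.14, adjusted p = 0.00036).

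Itgb6 (NM_001159564, chromosome 2, 60436349 to 60560660, minus strand), the partner of alpha v that activates latent TGF-beta and is best known from epithelia, was at 11.3, 48.3, 86.3 and 62.1 in siCtrl cells and 6.88, 44.6, 89.2 and 99.998 in siKlf5 cells. It rose 8.85-fold from day 0 to day 3 (log2 3.15, SE 0.33, adjusted p = 0.00041), and the value of each day 1 library was already above that of both day 0 libraries. Of the 10 endothelial and epithelial markers, Epcam and Krt18 were at 0, Pecam1 did not exceed 0.302, and the sum went from 38.5 on day 0 to 59.0 on day 3 in siCtrl cells and from 19.1 to 40.6 in siKlf5 cells. Krt14 was the most abundant of them (mean 16.6), and Cdh1 was the only one of the 4 tested that rose (log2 3.05, SE 0.69, adjusted p = 0.013). Their part in the rise of Itgb6 was not tested.

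Itgb7 (NM_013566, chromosome 15, 102046426 to 102062366, minus strand), which pairs with alpha4 or alphaE on lymphocytes, moved the other way. Its values were 121.1, 21.7, 16.1 and 9.91 in siCtrl cells and 68.8, 29.3, 7.94 and 3.36 in siKlf5 cells. Both day 0 libraries lay above all 6 later ones, and the fall to day 3 was 15.5-fold (log2 -3.96, SE 0.50, adjusted p = 0.00087), a larger change than that of any other member with a mean of at least 10. Of the leukocyte markers, none of the 6 that were tested passed in either direction, their summed level over 10 genes was 38.3 and 61.5 on day 0 and 89.1 and 51.5 on day 3 in siCtrl and siKlf5 cells, and Lyz2 was the most abundant. That list includes Itgal, Itgam and Itgb2, which are themselves members and were among the 6 tested, so it is not independent of the members. Of these, Itgb2 was at 8.94 and 6.49 on day 0 and 3.09 and 3.73 on day 3 (log2 -1.14, adjusted p = 0.56). The part of the leukocyte markers in the fall of Itgb7 was not tested. Itgb3, a partner of alpha v, was at 104.5, 140.8, 100.4 and 104.2 in siCtrl cells and 115.5, 151.3, 109.0 and 96.1 in siKlf5 cells, with its highest value on day 1 under either siRNA, and did not pass on any day. Itgb8, a partner of alpha v, was at 7.10, 19.8, 15.8 and 9.98 in siCtrl cells and 10.9, 11.9, 17.5 and 14.9 in siKlf5 cells, and Itgb2, the leukocyte beta subunit, ranged from 0 to 8.94. Neither passed the test.

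**Figure D2:**
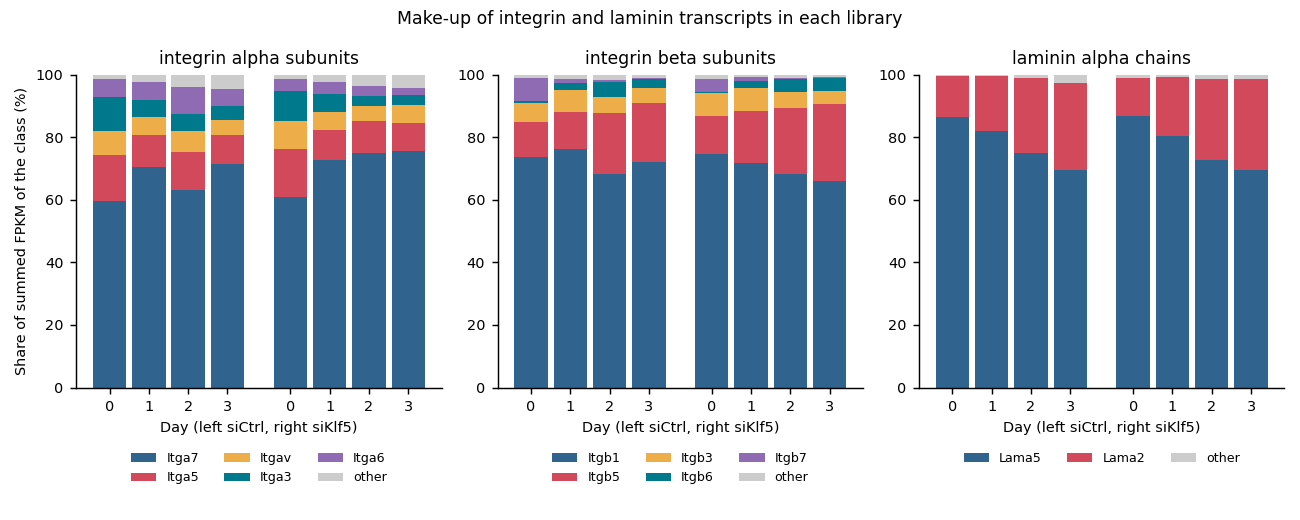
Share of each member in the summed FPKM value of its class (vertical axis, percent) in each of the 8 libraries, with the 4 siCtrl libraries on the left and the 4 siKlf5 libraries on the right of each panel. The Itga7 share is larger on day 3 than on day 0, and within the laminin alpha chains the Lama2 share grows as the Lama5 share shrinks, with both siRNAs.

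Members were also expressed as shares of their class. Itga7 made up 59.6% of all integrin alpha subunit expression on day 0 and 71.3% on day 3 in siCtrl cells, and 61.0% and 75.6% in siKlf5 cells. The share of Itga3 went from 10.9% to 4.23% and from 9.82% to 3.18%. Itgb1 stayed the leading beta subunit, at 73.8% and 72.0% in siCtrl cells and 74.6% and 66.0% in siKlf5 cells. Itgb5 went from 11.1% to 19.1% and from 12.0% to 24.7%, whereas Itgb7 went from 7.07% to 0.448% and from 4.34% to 0.142%. These shares are relative values, and with 1 library per condition they were not tested.

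The laminin chains were then compared over the same days. Of the alpha chains, Lama2 rose and Lama5 fell. Lama2 (NM_008481, chromosome 10, 26701092 to 27336748, minus strand), the alpha chain of merosin, the main laminin around adult muscle fibres, was at 44.7, 55.1, 84.8 and 66.4 in siCtrl cells and 39.4, 71.4, 67.3 and 82.7 in siKlf5 cells. Both day 0 libraries were below all later ones, and day 3 was 1.76-fold above day 0 (log2 0.82, SE 0.23, adjusted p = 0.032), a call that was lost without the day 2 libraries and in limma without trend. Lama5 (NM_001081171, chromosome 2, 179911078 to 179960564, minus strand), a chain of embryonic and of many adult basement membranes, was at 296.1, 255.2, 263.0 and 167.5 in siCtrl cells and 286.1, 301.8, 188.3 and 198.2 in siKlf5 cells. It fell 1.60-fold by day 3 (log2 -0.68, SE 0.18, adjusted p = 0.025), and this call was lost without the day 1 libraries and in limma without trend. The Lama2 share of laminin alpha expression went from 13.0% to 27.6% in siCtrl cells and from 12.0% to 29.0% in siKlf5 cells, and the Lama5 share from 86.3% to 69.6% and from 86.8% to 69.5%. Lama5 thus remained the leading alpha chain in every library. Lama4, of vascular and muscle basement membranes, ranged from 0.39 to 5.36 and Lama3, of epithelial ones, from 0.435 to 2.89, and neither passed the test.

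**Figure D3:**
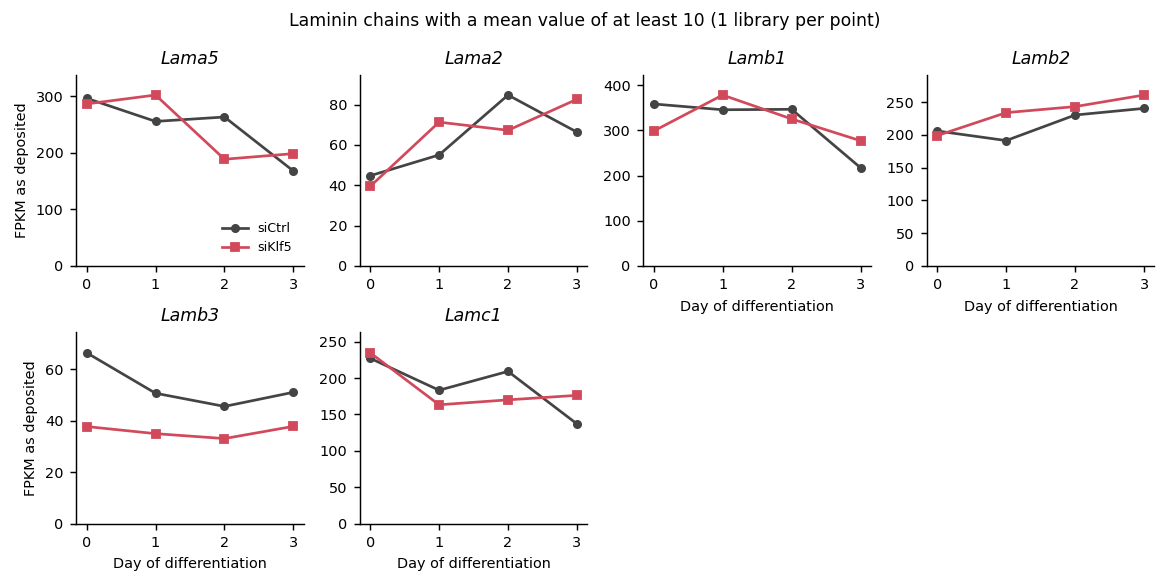
FPKM value (vertical axis, linear, from 0) of laminin chains with a mean of at least 10 on days 0 to 3 (horizontal axis) in siCtrl (grey circles) and siKlf5 cells (red squares), 1 library per point. Lama2 is higher and Lama5 and Lamc1 are lower on day 3 than on day 0 with both siRNAs, and Lamb3 is lower in siKlf5 than in siCtrl cells on all 4 days.

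Lamc1 (NM_010683, chromosome 1, 155066052 to 155179916, minus strand), the gamma chain of most laminins, was at 227.4, 183.4, 209.3 and 137.1 in siCtrl cells and 235.0, 163.4, 170.1 and 176.3 in siKlf5 cells. It was 1.49-fold lower on day 3 (log2 -0.57, SE 0.17, adjusted p = 0.034), a call that was lost in 5 of 10 alternatives, among them both other scalings and leaving out day 1 or day 2. Lamc3 did not exceed 3.43. Lamb1, the usual partner of gamma1 in embryonic laminins, was at 358.4, 345.6, 346.6 and 217.3 in siCtrl cells and 298.4, 378.2, 325.3 and 277.1 in siKlf5 cells, and Lamb2, the beta chain concentrated at the neuromuscular junction, was at 206.1, 191.5, 230.5 and 240.6 in siCtrl cells and 199.0, 234.1, 243.4 and 261.0 in siKlf5 cells. Their log2 differences on day 3 had opposite signs, -0.41 for Lamb1 (adjusted p = 0.074) and 0.31 for Lamb2 (adjusted p = 0.091), and neither passed. Lamb2 passed after either other scaling, and both passed in limma voom. The share of Lamb2 in laminin beta expression went from 32.7% to 47.3% in siCtrl cells and from 37.2% to 45.3% in siKlf5 cells. Lamb3, the beta chain of epithelial laminin, was at 66.5, 50.7, 45.6 and 51.1 in siCtrl cells and 37.7, 35.0, 33.1 and 37.8 in siKlf5 cells.

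The same comparison was also made within each siRNA, as the ratio of the day 3 to the day 0 library, with no test. In siCtrl cells 11 of the 29 members were more than 1.5-fold higher and 7 more than 1.5-fold lower on day 3, where 22.5% and 23.5% of all 14312 transcripts were. In siKlf5 cells 12 were higher and 4 lower, against 21.7% and 23.6%. Of the 20 members with a mean of at least 10, 18 had the same direction with both siRNAs. The exceptions, Itga6 and Lamb3, had intervals that include 0 in both (95% exact intervals on reads divided by 6, counting error only). The share of all transcripts with the same direction under both siRNAs was not counted. Lamb1, Lamc1 and Lama5 were past the 1.5-fold limit for a decrease in siCtrl cells and not in siKlf5 cells. Lama5 and Lamc1 fell in siKlf5 cells too. For Lama5 the log2 ratio was -0.82 (95% interval -0.96 to -0.68) in siCtrl cells and -0.53 (-0.67 to -0.39) in siKlf5 cells. For Lamc1 it was -0.73 (-0.93 to -0.54) and -0.41 (-0.60 to -0.22). For Lamb1 the log2 ratio was -0.72 (95% interval -0.90 to -0.55) in siCtrl cells and -0.11 (-0.29 to 0.08) in siKlf5 cells. Whether these changes differ between the siRNAs was not tested, since that interaction has no replicate.

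Knockdown of Klf5 was compared with the control in the same model, as a difference shared by the 4 days. Klf5 itself was lower by 1.94 on the log2 scale (SE 0.20, adjusted p = 0.024), a call that was lost with a pseudocount of 0.01 (0.054), without trend (0.65), without the day term (1.00) and without any single day (0.30 to 0.69). None of the 29 members passed in limma with Benjamini-Hochberg adjustment, and over all transcripts 0.00699% were called higher (1 transcript) and 0.0559% lower (8 transcripts). At an unadjusted p under 0.05 there were 5 members, Itga6, Itga3, Itgb4, Lamb3 and Itgb5, of which the first 4 were lower in knockdown cells, and 1374 of the 14312 transcripts (9.60%). In limma voom on the recovered reads 1 member, Itga6, was called.

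Itga6 had the smallest unadjusted p of the members in this comparison. On days 0, 1, 2 and 3 the log2 ratio of siKlf5 to siCtrl was -0.80 (95% interval -1.09 to -0.52), -0.65 (-0.93 to -0.38), -1.26 (-1.48 to -1.05) and -1.06 (-1.34 to -0.78). Every siKlf5 library was lower than the control of its day by more than 1.5-fold, and the highest siKlf5 value, 140.4, lay below the lowest siCtrl value, 154.2. The values of Lamb3 did not overlap either, with 37.8 as the highest in siKlf5 cells and 45.6 as the lowest in siCtrl cells. How many of all transcripts separate in this way was not counted, so the separation has no background to be set against. In the model the Itga6 difference was -0.94 (SE 0.12, adjusted p = 0.061). The adjusted p passed with a pseudocount of 1 (0.046), after median-ratio centring (0.032) or upper-quartile scaling (0.043) and in limma voom (0.00019), and it lay between 0.053 and 1.00 in the other 9 alternatives. The difference thus missed the threshold of the main test, and its direction was the same in all 4 pairs of libraries.

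**Figure D4:**
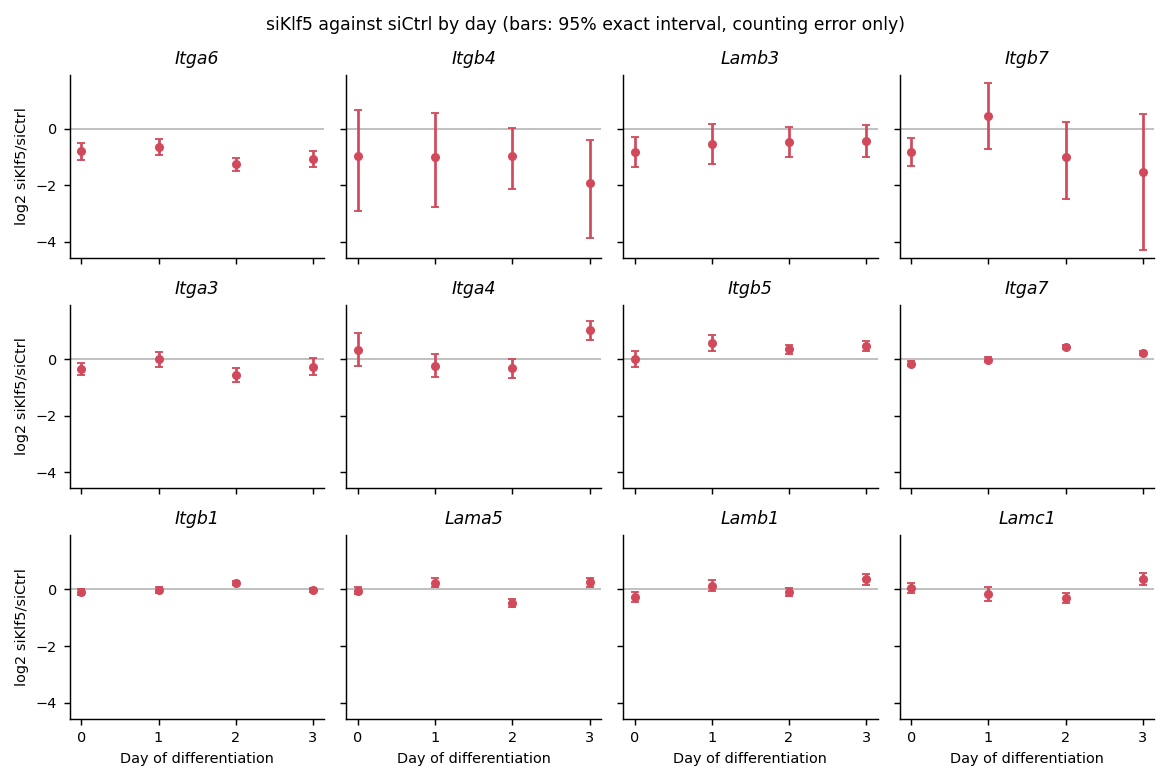
log2 ratio of siKlf5 to siCtrl (vertical axis) on each day (horizontal axis) for 12 members, with 95% exact intervals on reads divided by 6 that cover counting error only. The intervals of Itga6 lie below 0 on all 4 days, those of Itgb4 and Lamb3 include 0 on 3 of 4 days, and Itga4 is above 0 on day 3.

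Itgb4, the partner of alpha6 in hemidesmosomes, was a low transcript. It was at 5.45, 8.88, 10.9 and 9.40 in siCtrl cells and 2.72, 4.397, 5.52 and 2.43 in siKlf5 cells, the latter on 26 to 64 reads. The log2 ratios were -0.98, -0.999, -0.97 and -1.91, and only the last had an interval that excludes 0 (-3.87 to -0.41). The difference in the model was -1.21 (SE 0.47, adjusted p = 0.47). For Lamb3 it was -0.56 (SE 0.16, adjusted p = 0.34), with lower values on all 4 days and an interval below 0 on day 0 alone. The 4 endothelial and epithelial markers tested had a median log2 difference of -1.09, against 0.01 over all transcripts, and none passed. Cdh1 was at 4.63, 9.76, 24.9 and 38.1 in siCtrl cells and 1.65, 10.2, 3.98 and 14.9 in siKlf5 cells. Krt14 was higher in siKlf5 cells on days 1 to 3. Their part in the lower values of Itga6, Itgb4 and Lamb3 was not tested. Itga3 had a difference of -0.30 (SE 0.10, adjusted p = 0.44) and Itgb5 one of 0.34 (SE 0.10, adjusted p = 0.36), with Itgb5 above control on days 1 to 3 and at the control level on day 0. For the abundant subunits the model gave differences of 0.11 for Itga7 (SE 0.11) and 0.02 for Itgb1 (SE 0.08).

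Day by day, without a test, those of the 29 members averaging 1 or more that were over 1.5-fold lower in siKlf5 cells numbered 10, 7, 4 and 9 from day 0 to day 3, where the background was 11.1%, 11.0%, 13.0% and 12.5% of all transcripts. The members more than 1.5-fold higher numbered 2, 5, 3 and 4, against 9.22%, 16.4%, 7.69% and 10.7%. On day 0 the 10 lower members were Itga2b, Itga6, Itga11, Itgal, Itgam, Itgb4, Itgb6, Itgb7, Lamb3 and Lamc3. With a mean of at least 5 required in place of 1 there were 6, out of fewer members. No share of all transcripts is given for that filter. Of the 29 members, Itga6 and Itgb4 were past 1.5-fold in 1 direction on all 4 days. The share of all transcripts that were so on all 4 days was not counted. Among the 8 members with lower means, Itga1 was higher in siKlf5 cells by more than 1.5-fold on all 4 days, on 4, 0, 2 and 0 reads in siCtrl cells and 10, 6, 16 and 2 in siKlf5 cells. On day 3 the members higher in knockdown cells included Itga4, Itga11 and Itgb6. Itga4 was 2.01-fold higher on that day (log2 1.01, 95% interval 0.67 to 1.36), and its intervals on days 0 to 2 included 0. Itgb6 had a log2 ratio of 0.69 on day 3 (0.31 to 1.07). Itga7 was slightly lower on day 0 (-0.17, -0.26 to -0.08), level on day 1 (-0.02) and higher on days 2 (0.41) and 3 (0.22).

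Genes that work with integrins and laminins were compared in the same fits, from lists written with earlier results of these data known. Over all transcripts tested, 12.8% rose from day 0 to day 3 and 17.6% fell, with a median log2 difference of -0.09. Among 38 adaptor and signalling genes of the integrin tails and focal adhesions that were tested, 8 rose, 8 fell and 22 did not pass. The median over these 38 was 0.06. The largest rises were those of Itgb1bp2, which encodes melusin, a muscle protein that binds the beta1 tail, and of the Z-disc gene Ldb3. Itgb1bp2 was at 5.16, 113.3, 458.2 and 482.1 in siCtrl cells and 3.495, 107.2, 225.5 and 224.2 in siKlf5 cells (log2 6.24, SE 0.25, adjusted p = 4.1e-06), and the Ldb3 difference was 4.56 (SE 0.12). Lims2, an adaptor of the integrin-linked kinase, and the tyrosine kinase Src fell, by 1.47 and 0.84 on the log2 scale. None of the 38 passed for siKlf5 against siCtrl.

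Of 22 basement membrane partners and other laminin receptors tested, 9 rose, 2 fell and 11 did not pass, with a median of 0.63. Over all transcripts 12.8% rose and 17.6% fell, with a median of -0.09. The 2 nidogens, which link laminin to type IV collagen, moved in opposite directions. Nid2 rose by 2.83 on the log2 scale (SE 0.27, adjusted p = 0.00023), from 51.0 to 286.7 in siCtrl cells and from 42.2 to 383.8 in siKlf5 cells. Nid1 fell by 1.38 (SE 0.16, adjusted p = 0.00065), from 1568 to 516.2 and from 1407 to 634.0. Nid1 was the more abundant of the pair on every day in both. Col4a2 was the other gene that fell (-0.49, adjusted p = 0.032).

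Ntn4, a laminin-related netrin that binds laminin gamma chains, was the single gene of these lists called for siKlf5 against siCtrl. It was at 63.8, 145.3, 194.2 and 248.9 in siCtrl cells and 30.5, 75.3, 112.6 and 120.1 in siKlf5 cells. It was lower in knockdown cells on every day, by 0.96 on the log2 scale in the model (SE 0.10, adjusted p = 0.028). This call was lost in limma without trend (adjusted p = 0.50), without the day term (1.00) and without any single day (0.30 to 0.69). Against 12.8% of all transcripts rising and 17.6% falling, 7 of 24 other integrin ligands and associated surface proteins tested rose and 4 fell. The other 13 did not pass, and the median over all 24 was 0.16. The elastic fibre protein Fbln5 (log2 3.51) and thrombospondin 1, Thbs1 (1.68), rose the most, and Fbln1 (-0.99) and the CD98 heavy chain Slc3a2 (-0.68) fell the most. Of the 14 skeletal muscle markers, 11 rose and none fell (median 3.76). The largest rises were those of Myh8, a perinatal myosin heavy chain (log2 6.40), and Cav3, the muscle caveolin (5.87), against -0.09 for the median transcript.

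The transcripts whose log2 levels over the 8 libraries were most like those of Itga7, among 11571 others with a mean of at least 10, were Serf2 (Pearson r = 0.99), Selk (0.98) and Cnn3 (0.97). For Lamc1 they were Cacul1, Stk35 and Zbtb14 (each 0.97). These are descriptions over 8 libraries that share the day course and their scaling.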

How the data were processed

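Poly(A) RNA of C2C12 cells was sequenced from both ends in 8 libraries. Per the file headers and the submitters' processing notes, the authors aligned reads to mm9 with STAR and counted reads of both strands on exons of RefSeq transcripts with HOMER, with at most 3 reads per position and 1 transcript per gene, so genes that overlap on opposite strands can share reads. The deposited FPKM values were scaled to a matrix total of 10000000 and exceed FPKM in the usual sense. The study states a DESeq2 normalisation of counts, which were not used here, nor were 8 deposited columns of log2 values. The 6 ChIP samples were not analysed here.

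FPKM multiplied by exon length gave whole reads, and of the 3662 to 3998 low values examined in each library, 100% were within 0.1 of a whole number. The sums gave the depth. Reads come in clumps (419 transcripts in siCtrl day 0 had exactly 6 reads and 68 had exactly 5), so exact Clopper-Pearson intervals used reads divided by 6. These intervals hold counting error alone.

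The 14312 transcripts averaging 1 or more were tested with limma 3.58.1 in R 4.3.3 (trended empirical Bayes on log2(FPKM + 0.1), terms siRNA and day, threshold 0.05). Fold changes are on that scale and understate changes of low transcripts. Nothing in the labels says that libraries came from separate cultures, so p-values measure the spread between these libraries. The 1.5-fold limit is that of the study. On simulated data for all 14312 transcripts, 31% of 100 transcripts changed 2-fold and 54% of 100 changed 4-fold between siRNAs were called in the right direction, and 17% and 56% between days 3 and 0. Of the unchanged, 0.0354% and 0.276% were called. No other transcripts were changed in these simulations, the noise added to counting error had a log2 SD of 0.1, and there was no siRNA by day interaction. In the real data 12.8% of transcripts were called higher and 17.6% lower on day 3 than on day 0. The simulated rates therefore need not hold for the real data. Tables and figures used Python 3.11.15, pandas 2.3.3, numpy 2.4.6, scipy 1.17.1 and matplotlib 3.10.9.

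The members and lists were chosen with earlier results of these data known. Values in all libraries are given for members with a mean of at least 10 or past the threshold in a fit. From each list, at most 2 called genes with the largest rise and 2 with the largest fall are named. A few items that these rules name are not reported here. Likeness was ranked for Itga7 and Lamc1, 3 transcripts each. Itgb4 and the 4 promoters shown were chosen after their values were seen. Alternatives were other pseudocounts, filters, scalings, limma without trend, limma voom, each day left out, no day term and a 2-fold limit.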

Additional observations from a re-analysis of the deposited data

How the results depend on the processing

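Of the 12 members called between day 3 and day 0, Itgb5, Itga3, Itgb6, Itgb7 and Itga10 were called in all 10 alternatives run and Itga11 in all 9 that tested it. Itga7 was lost without trend, Itga4 and Lama2 without trend and without day 2, Lama5 without trend and without day 1, Itgb1 with a pseudocount of 0.01, with no filter, without trend and without day 1, and Lamc1 without trend, without day 1 or day 2 and after both other scalings. No direction of a called member was reversed. Limma without trend called 5 members higher and 2 lower and 1366 transcripts lower, and leaving out day 1 left 2 members lower. Day 0 or day 3 could not be left out of that comparison.

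For siKlf5 against siCtrl, 1 member (Itga6) was called lower with a pseudocount of 1, after median-ratio centring, after upper-quartile scaling and in limma voom. Over all transcripts limma voom called 50 higher and 179 lower, while limma without trend called 0 and 0, leaving out any single day gave 0 and 0, and the fit with no day term, which drops the pairing of the siRNAs by day, called 0 higher and 1 lower. No paired analysis by replicate number was possible because each condition has 1 library; the pairing by day is part of the model.

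Counts past a fold limit moved with the settings. With a mean of at least 5, members higher and lower on day 3 than on day 0 were 6 higher in siCtrl cells and 7 higher and 2 lower in siKlf5 cells, and with a 2-fold limit 4 were lower in siCtrl and 2 in siKlf5 cells. For siKlf5 against siCtrl on day 0, 1 was higher and 6 lower with a pseudocount of 1, 4 were higher with no filter, 1 was higher and 6 lower with a mean of at least 5, and 1 was higher and 4 lower at 2-fold. On day 1, 1 was higher with a mean of at least 5, and 3 were higher and 3 lower at 2-fold. On day 2, 6 were higher with no filter, 0 were higher with a mean of at least 5, and 2 were lower at 2-fold. On day 3, 8 were higher with no filter, 5 were lower with a mean of at least 5, and 2 were higher and 5 lower at 2-fold. From reads not divided by length, Itga7 made up 52.7% of alpha subunit reads on day 0 and 64.7% on day 3 in siCtrl cells. The stricter filter leaves fewer members to count and the setting with no filter leaves more, and the cause of the other shifts was not tested. The share of all transcripts past the limit is not given for these settings, so the counts have no background beside them.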
